A study of Mus musculus with 32 samples.

Results

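The transcripts uc007xok.1 (1591 nt), uc007pbo.1 (14398 nt) and uc007ihs.1 (8239 nt) were 3 of the 51884 transcript models quantified in 32 RNA libraries from mouse primary cortical neurons. They were chosen from earlier results as the transcripts most steadily lower in the streptavidin pulldown than in its input. In the order of limma p-values for a lower level in the pulldown, uc007xok.1 stood 1st with the Pan construct, and uc007ihs.1 and uc007pbo.1 stood 1st and 2nd with the PSD95 construct. With the other construct they stood lower in that order, uc007xok.1 at rank 49 with PSD95, and uc007ihs.1 and uc007pbo.1 at ranks 34 and 166 with Pan. The contrast of pulldown with input therefore chose them, and it is described below without a test. The files give a UCSC identifier and a length for each model and no gene name. None of the identifiers was found in the gene tables or in the GENCODE M21 annotation used here (0 of 51884), so the 3 transcripts are given by identifier alone, without a sequence or a known role.

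The neurons came from cortices of CD-1 mouse embryos at E14.5 and were kept for 12 days in vitro. TurboID is an engineered biotin ligase that attaches biotin to proteins near it. It was expressed from doxycycline-inducible lentivirus, either fused to sfGFP and rat PSD95 (TurboID-PSD95) or without a localization signal (Pan-TurboID), so both constructs were introduced by virus and were not expressed from the endogenous gene. All 8 groups received cycloheximide for 2 minutes and biotin for 30 minutes and were crosslinked with UV light. Resting neurons were compared with depolarized neurons, which had been silenced with TTX and DL-AP5 for 2 hours and given 55 mM KCl for 1 hour. The depolarized neurons were then left to recover for 30 minutes in fresh medium that held biotin and again TTX and DL-AP5. The silencing and the KCl therefore cannot be told apart in that contrast. From each lysate an input and a streptavidin pulldown were sequenced, which gave 4 libraries in each combination of state, construct and fraction.

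PSD95 is a scaffold protein of the postsynaptic density of excitatory synapses, where it is concentrated in dendritic spines. Biotin placed around it marks proteins near the postsynaptic membrane, and UV light links proteins to RNA they touch, so that RNA can be recovered on streptavidin together with biotinylated proteins. Pan-TurboID samples the whole neuron in the same way. Strong depolarization with KCl opens voltage-gated calcium channels, starts activity-dependent gene expression and changes local translation in dendrites.

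The libraries held 2949123 to 19323465 assigned reads. One transcript, uc009sgd.1, took between 2.08% and 84.8% of them (median 14.5%), and over 50% in 6 libraries, of which 5 were numbered replicate 3. Since such a transcript lowers the share of every other one, and with it the CPM (counts scaled to a fixed library total), levels are given mainly as CPM of the remaining reads, that is, of the 612945 to 17632500 reads outside the 3 most abundant transcripts. In the 8 libraries numbered replicate 2 by their titles, the description field named the opposite state from the title and treatment field, and the state was taken from the latter. Of 200 transcripts chosen for their KCl change in the other replicates, 77.5% to 86.5% moved in replicate 2 in the direction given by the titles, depending on fraction and construct. Under the other reading none of the differences called below passed the limma test, with 15 of 21 at an unadjusted p under 0.05. Markers of cell types and of neuronal activity could not be checked because the identifiers are not paired with gene names.

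All 3 transcripts were abundant. By mean reads uc007pbo.1 ranked 6th, uc007ihs.1 ranked 9th and uc007xok.1 ranked 10th of all models, and together they took 0.585% to 1.23% of the remaining reads of a library. Per length the order was different, since mean TPM (a share of the library after division by length) was 960 for uc007xok.1, 183 for uc007ihs.1 and 167 for uc007pbo.1. The smallest count of any of them in any library was 941 reads, so sampling error was small beside the spread between libraries. Read assignment differed between them. The estimated count of uc007pbo.1 was a whole number (within 0.001 reads) in 32 of 32 libraries, against 3 for uc007ihs.1 and 2 for uc007xok.1. Reads of both of the latter had been partly divided by salmon with other models. A level of uc007xok.1 or of uc007ihs.1 may therefore hold reads of similar transcripts. The length of 1591 nt was shared by 15 models in the files, which by itself says nothing about shared reads.

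On CPM over all reads the highest of the 32 libraries was 12.6 to 13.2 times the lowest, from 268 to 3467 for uc007xok.1, from 390 to 5142 for uc007pbo.1 and from 226 to 2850 for uc007ihs.1. On CPM of the remaining reads the highest library was 2.66 times the lowest for uc007xok.1, 2.27 times for uc007pbo.1 and 2.39 times for uc007ihs.1.

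The level of uc007xok.1 was higher in every input than in the pulldown of the same lysate. In resting Pan neurons it was at 3093, 2238, 2112 and 2289 CPM of the remaining reads in the inputs of replicates 1 to 4 and at 1932, 1600, 1503 and 1981 in the pulldowns. In depolarized Pan neurons the inputs were at 3954, 3776, 3786 and 3003 and the pulldowns at 2527, 2652, 2133 and 2082. With PSD95 the resting inputs were at 3132, 2287, 2390 and 3274 against 2177, 1635, 1488 and 2081 in the pulldowns. These 3 sets of inputs and pulldowns did not overlap, as in this direction for 2.85%, 1.41% and 2.91% of the 34696 transcripts tested, and the same held in depolarized PSD95 neurons (3.74%), where the inputs were at 3337, 3332, 3148 and 3291 and the pulldowns at 1696, 1939, 1724 and 1963. The last set had the widest separation, a mean log2 ratio of pulldown to input of -0.84 ± 0.10 (SD, n = 4), or 0.558 of the input level, against -0.47 ± 0.19 in resting Pan, -0.63 ± 0.15 in depolarized Pan and -0.59 ± 0.10 in resting PSD95 neurons.

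The longest of the transcripts, uc007pbo.1, was also lower in each pulldown, and its groups overlapped more. In resting Pan neurons it was at 5097, 5461, 4074 and 4547 CPM of the remaining reads in the inputs and at 3658, 3566, 2626 and 3481 in the pulldowns. In depolarized Pan neurons the inputs were at 5067, 5047, 4020 and 4372 and the pulldowns at 3396, 4086, 2656 and 3096. The first pair of groups was separated and the second was not, because the pulldown of replicate 2 lay above the input of replicate 3. With PSD95 the resting inputs were at 5916, 5287, 3564 and 5282 and the pulldowns at 4055, 4247, 2605 and 4335, which overlapped. In depolarized PSD95 neurons the inputs, at 4742, 4925, 3915 and 4674, were separated from the pulldowns at 2873, 3322, 2624 and 3083. The library of replicate 3 was the lowest in each of the 8 groups. Mean log2 ratios were -0.53 ± 0.12 in resting Pan, -0.49 ± 0.13 in depolarized Pan, -0.40 ± 0.12 in resting PSD95 and -0.62 ± 0.07 in depolarized PSD95 neurons (SD, n = 4 each).

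The smallest differences between fractions were those of uc007ihs.1. In resting Pan neurons it was at 3121, 3318, 2911 and 3304 CPM of the remaining reads in the inputs and at 2602, 2434, 2014 and 2407 in the pulldowns. In depolarized Pan neurons the inputs were at 2638, 2535, 2433 and 2540 and the pulldowns at 2125, 2210, 1861 and 2130. Neither pair of groups overlapped. With PSD95 the resting inputs, at 3230, 2578, 2789 and 3584, met the pulldowns at 2544, 2461, 1838 and 2590, whereas the depolarized inputs, at 2731, 2738, 2554 and 2563, stood apart from the pulldowns at 1779, 2129, 1499 and 1839. Mean log2 ratios were -0.42 ± 0.11 in resting Pan, -0.29 ± 0.08 in depolarized Pan, -0.37 ± 0.23 in resting PSD95 and -0.56 ± 0.18 in depolarized PSD95 neurons (SD, n = 4 each).

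**Figure D1:**
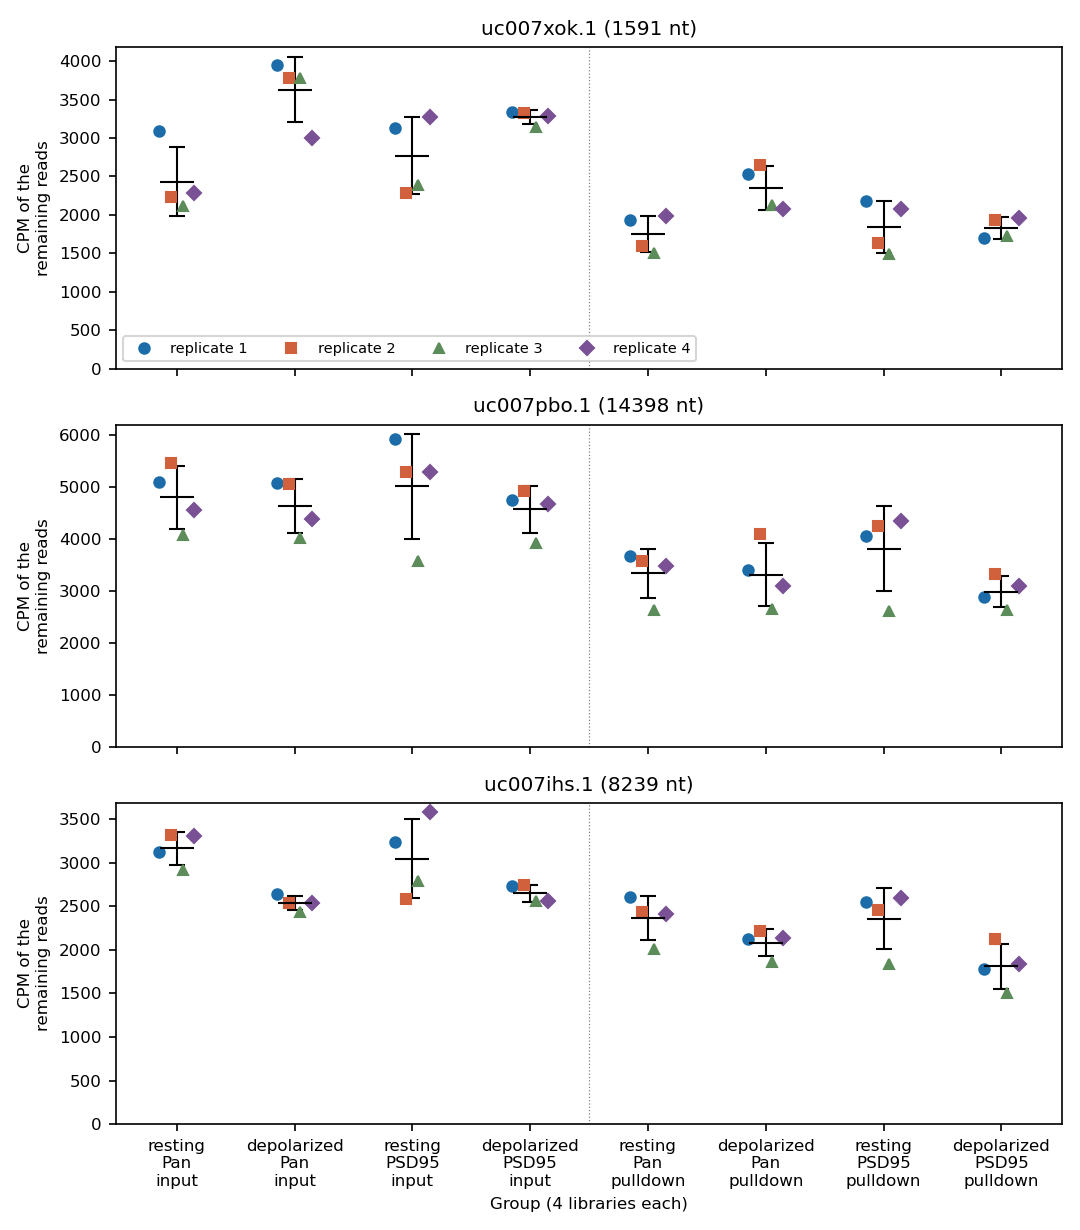
Level of uc007xok.1, uc007pbo.1 and uc007ihs.1 (one panel each) in every library, as CPM of the remaining reads on a linear axis from 0, by group, with one symbol for each replicate and the mean ± SD of 4 libraries. The mean of the inputs, left of the dotted line, lies above that of the pulldowns for each state and construct, while single libraries overlap in some of them. The depolarized Pan inputs have the highest uc007xok.1 mean (3630 ± 426).

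Ordered by group mean, each transcript had its 4 input groups above its 4 pulldown groups. For uc007xok.1 the means went from 3630 ± 426 in depolarized Pan inputs through 3277 ± 88.7 in depolarized PSD95, 2771 ± 504 in resting PSD95 and 2433 ± 446 in resting Pan inputs to 2349 ± 284 in depolarized Pan pulldowns, and from there through 1845 ± 335 in resting PSD95 and 1831 ± 140 in depolarized PSD95 to 1754 ± 238 in resting Pan pulldowns (CPM of the remaining reads, SD, n = 4 each). The order of uc007ihs.1 went the other way with state, with resting Pan (3163 ± 191) and resting PSD95 inputs (3045 ± 450) above the depolarized PSD95 (2646 ± 102) and depolarized Pan inputs (2537 ± 83.6), and with resting pulldowns (2364 ± 249 with Pan and 2358 ± 351 with PSD95) above depolarized ones (2081 ± 152 and 1812 ± 258). For uc007pbo.1 the input means lay between 4564 ± 445 in depolarized PSD95 and 5012 ± 1010 in resting PSD95 neurons, and the pulldown means between 2975 ± 297 in depolarized PSD95 and 3811 ± 812 in resting PSD95 neurons. In none of the 3 orders were neighbouring groups separated, as the libraries of each group overlapped those of the next.

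Over all lysates, the pulldown was below the input in 16 of 16 for each of the 3 transcripts on CPM of the remaining reads, as it was for 1.37% of the 34696 transcripts tested. Since this contrast chose the transcripts, the count is a description of the choice. The log2 ratios ranged from -0.98 to -0.21 for uc007xok.1, from -0.72 to -0.28 for uc007pbo.1 and from -0.77 to -0.07 for uc007ihs.1. The direction depended on the scale. In depolarized Pan neurons the mean log2 ratio over all reads was above 0, at 0.37 for uc007xok.1, 0.50 for uc007pbo.1 and 0.71 for uc007ihs.1, and without replicate 4 it was -0.45, -0.29 and -0.09. On CPM over all reads the pulldown was below the input in 14 of 16 lysates for uc007xok.1, in 12 for uc007pbo.1 and in 10 for uc007ihs.1, with ratios from -2.17 to 3.11 on the log2 scale. On TPM it was below in 6, 5 and 5 of 16 lysates in the same order. The lysates with the highest and the lowest ratio over all reads were replicate 4 of depolarized Pan neurons, whose input had 84.8% of its reads in uc009sgd.1 and whose pulldown had 6.58%, and replicate 3 of resting PSD95 neurons, with 28.0% in the input and 73.9% in the pulldown.

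**Figure D2:**
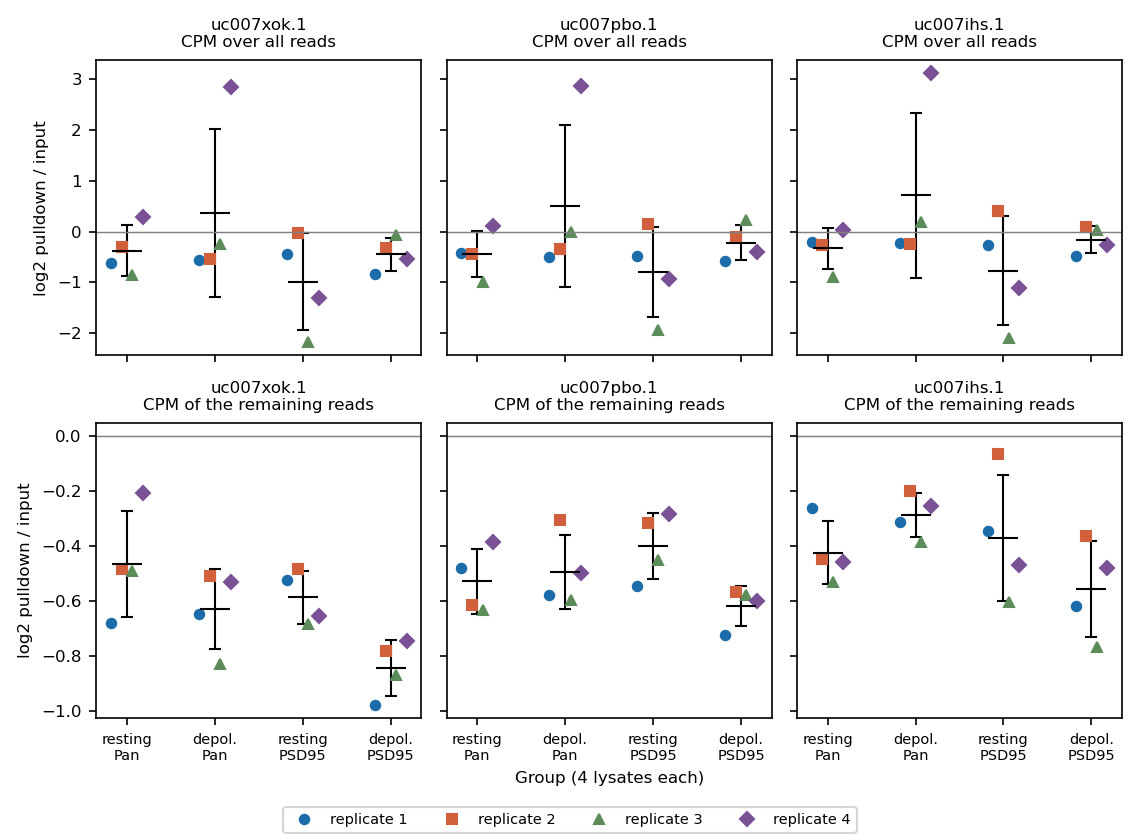
Log2 ratio of pulldown to input in each of 16 lysates for the 3 transcripts, over all reads (top row) and over the remaining reads (bottom row), with one symbol for each replicate, the mean ± SD of 4 lysates, and a grey line at equal levels. The y axes differ between rows: the ratios over all reads spread from -2.17 to 3.11, whereas all those over the remaining reads lie below 0.

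In the limma fit over both states, which scales libraries by TMM and weights them by their quality, uc007xok.1 was lower in the pulldown by a log2 difference of -0.96 ± 0.02 (SE) with Pan and -0.92 ± 0.07 with PSD95. The corresponding differences were -0.78 ± 0.08 and -0.84 ± 0.04 for uc007pbo.1 and -0.46 ± 0.03 and -0.65 ± 0.03 for uc007ihs.1. The small standard errors, more than large differences, put these transcripts at the head of the order. The tests below draw on the same libraries, with weights estimated anew within each fraction. In the fits within a fraction the highest weights went to libraries with most reads in uc009sgd.1, namely 2.24 to the depolarized Pan input of replicate 4 and 2.30 to the resting PSD95 pulldown of replicate 3. Their part in the standard errors was not tested beyond the fits without weights and without the 6 libraries. Among 7288 transcripts with a mean of at least 200 reads, whose median difference was -0.21 with Pan and -0.28 with PSD95, uc007xok.1 lay at percentile 3.36 and 8.52 from the low end, uc007pbo.1 at 6.86 and 11.1, and uc007ihs.1 at 26.4 and 21.1. At the edge of the choice, uc007xok.1 stood 1st with Pan and uc009qun.1, not chosen, stood 2nd at -0.97 ± 0.04. With PSD95 uc007ihs.1 stood 1st, uc007pbo.1 2nd and uc007aoj.2, not chosen, 3rd at -0.89 ± 0.04. Of all tested transcripts 8.24% were lower in the pulldown with Pan and 10% with PSD95 at a limma adjusted p under 0.05.

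The KCl change, which the choice did not use, was first compared in the inputs, that is, in total RNA. There uc007xok.1 rose and both other transcripts fell, where fewer cells of a type and less RNA per cell cannot be told apart in such bulk libraries. Depolarized levels of uc007xok.1 were above resting ones in 4 of 4 pairs of replicates with Pan (log2 ratios of CPM of the remaining reads of 0.35, 0.75, 0.84 and 0.39) and in 4 of 4 with PSD95 (0.09, 0.54, 0.40 and 0.01). The levels of uc007ihs.1 were below in 4 of 4 pairs with Pan (-0.24, -0.39, -0.26 and -0.38) and in 3 of 4 with PSD95 (-0.24, 0.09, -0.13 and -0.48). Only the groups of uc007ihs.1 in Pan inputs did not overlap, which was so for 3.48% of transcripts in that direction. With limma the log2 difference over both constructs was 0.25 ± 0.04 for uc007xok.1 (SE, adjusted p = 0.00195), -0.16 ± 0.03 for uc007pbo.1 (adjusted p = 0.00342) and -0.29 ± 0.03 for uc007ihs.1 (adjusted p = 0.000232). All 3 were thus called, against 6.19% of the 27887 transcripts tested, whose median difference was -0.01. That share covers transcripts of all levels that passed the filter, whereas these 3 ranked 6th, 9th and 10th by mean reads. Small standard errors in these libraries helped to choose them, so the calls are not independent of the choice. The same holds for the calls in the pulldowns and between constructs below. The change of uc007pbo.1 was the smallest, and its pairs were between -0.11 and -0.01 with Pan and between -0.32 and 0.14 with PSD95. Calls were lost for uc007xok.1 and uc007pbo.1 without the replicate term in the model (0.33 and -0.11), without replicate 2 (0.26 and -0.11), and for uc007xok.1 without replicate 3 (0.22). Without replicate 1 those of uc007pbo.1 and uc007ihs.1 were lost (-0.10 and -0.35), and without the 6 libraries with over 50% of reads in uc009sgd.1 the 3 calls remained (0.21, -0.20 and -0.31). The size of the rise of uc007xok.1 was larger without replicate 1 (0.46), with DESeq2 (0.45) and without a filter on low counts (0.69). Without that filter the difference of uc007pbo.1 turned in sign (0.058) and that of uc007ihs.1 was close to 0 (-0.0056).

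In the Pan pulldowns the KCl change had the same signs as in the inputs. Each of the 4 pairs of uc007xok.1 was higher after depolarization (log2 ratios 0.39, 0.73, 0.51 and 0.07), and the resting and depolarized libraries did not overlap, as for 4.57% of transcripts in that direction. Its limma difference was 0.15 ± 0.09 and was not called (adjusted p = 0.353). The transcript uc007ihs.1 fell by 0.29 on the log2 scale (-0.29 ± 0.05, limma adjusted p = 0.00404) and was lower in 4 of 4 pairs (-0.29, -0.14, -0.11 and -0.18). For uc007pbo.1 the limma difference was -0.21 ± 0.05 (adjusted p = 0.0195), while its pairs were at -0.11, 0.20, 0.02 and -0.17 and so had no common direction. Called transcripts made up 6.2% of the 32553 tested, and the median difference was -0.07 over all of them and -0.10 over the abundant ones. The call of uc007pbo.1 was lost without any single replicate (-0.23 to -0.09), without the 6 libraries (-0.21) and without the replicate term (-0.22), and that of uc007ihs.1 without replicate 1 (-0.24), replicate 4 (-0.29) or the replicate term (-0.32). The sign turned for uc007pbo.1 without a filter on low counts (0.0014) and for uc007xok.1 with all 32 libraries in 1 model (-0.023).

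In the PSD95 pulldowns 2 of the transcripts fell further. The log2 ratios of uc007ihs.1 were -0.52, -0.21, -0.29 and -0.49 in the 4 pairs, and those of uc007pbo.1 were -0.50, -0.35, 0.01 and -0.49. By limma the differences were -0.58 ± 0.05 (adjusted p = 0.000201) and -0.60 ± 0.05 (adjusted p = 9.89e-05), and 7.96% of transcripts were called. Both lay below all 4 pairs, whose means were -0.38 ± 0.15 and -0.33 ± 0.24 (SD, n = 4 each). In Pan pulldowns these means were -0.18 ± 0.08 and -0.02 ± 0.16, and the difference between constructs was not tested. The median difference in this contrast was 0.08 over all transcripts tested and -0.15 over the abundant ones. The pairs of uc007xok.1 went both ways (-0.36, 0.25, 0.21 and -0.08, mean 0.003 ± 0.284), and its limma difference of -0.36 ± 0.10 missed the threshold (adjusted p = 0.0515). Resting and depolarized libraries overlapped for all 3 transcripts. Calls of uc007pbo.1 and uc007ihs.1 were lost without replicate 1 (-0.44 and -0.38) or without the replicate term (-0.55 and -0.56), and were kept without replicate 2 (-0.66 and -0.69) and without the 6 libraries (-0.68 and -0.67).

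Over all 16 pairs of both fractions and constructs, uc007ihs.1 was lower after depolarization in 15, as were 1.69% of transcripts in at least that many. The level of uc007xok.1 was higher in 14 pairs, which 4.11% of transcripts reached, and that of uc007pbo.1 was lower in 12, which 9.35% reached. The PSD95 pulldowns of replicates 1 and 4 held both exceptions of uc007xok.1. These pairs come from 4 replicates, with inputs and pulldowns of the same lysates, so they are not independent of each other. The shares cover all 34696 transcripts that passed the filter, whatever their level.

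The ratio of pulldown to input was also compared between resting and depolarized neurons in 1 model over the 32 libraries. These ratios, and their small standard errors, are what chose the transcripts, so the differences are given as a description, with no p. With Pan the difference was -0.43 ± 0.04 (SE, log2) for uc007xok.1, -0.15 ± 0.18 for uc007pbo.1 and -0.07 ± 0.07 for uc007ihs.1. With PSD95 it was -0.46 ± 0.12, -0.47 ± 0.07 and -0.23 ± 0.06 in the same order. The replicate means on CPM of the remaining reads moved less, from -0.47 ± 0.19 to -0.63 ± 0.15 for uc007xok.1 with Pan and from -0.40 ± 0.12 to -0.62 ± 0.07 for uc007pbo.1 with PSD95 (SD, n = 4 each). In this fit 0.0144% of the 34696 transcripts were called with Pan and 0.0231% with PSD95, and nothing is read from that for the 3 transcripts. The value of uc007xok.1 with Pan went from -0.80 without replicate 1 to -0.09 without replicate 4, and that of uc007pbo.1 with PSD95 was -0.07 without replicate 4. The model had a replicate term and no term for the lysate that an input and its pulldown share. With a lysate term the differences of uc007xok.1 were smaller in size with both constructs. Under all alternatives its value with Pan ranged from -0.80 to -0.02.

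The question of a difference between PSD95 and Pan was asked within each fraction and state. In resting pulldowns none of the 3 transcripts was called, and 0.00922% of 32553 were. The log2 differences by limma were 0.10 ± 0.09 for uc007xok.1 (adjusted p = 0.756), 0.20 ± 0.04 for uc007pbo.1 (adjusted p = 0.232) and 0.02 ± 0.04 for uc007ihs.1 (adjusted p = 0.886). In depolarized pulldowns, where 0.129% were called, each transcript was lower with PSD95 than with Pan in 4 of 4 replicates on CPM of the remaining reads. The share of all transcripts with a common direction in 4 of 4 was not counted, here or for the KCl changes above. By limma the median difference in this contrast was 0.08 over all transcripts tested and -0.09 over the abundant ones. The log2 ratios were -0.58, -0.45, -0.31 and -0.08 for uc007xok.1, -0.24, -0.30, -0.02 and -0.01 for uc007pbo.1, and -0.26, -0.05, -0.31 and -0.21 for uc007ihs.1. The PSD95 and Pan libraries of uc007xok.1 did not overlap, as for 1.11% of transcripts in that direction, with 0.782 of the Pan level at a mean log2 ratio of -0.35 ± 0.21 (SD, n = 4). None passed the limma test, at -0.41 ± 0.09 (adjusted p = 0.127), -0.19 ± 0.05 (adjusted p = 0.214) and -0.27 ± 0.06 (adjusted p = 0.0925).

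Between the inputs of both constructs, which no biotin selection precedes, some differences were called. In resting inputs uc007pbo.1 was called higher with PSD95 (0.24 ± 0.03, limma adjusted p = 0.025), and in depolarized inputs uc007xok.1 was called lower (-0.39 ± 0.05, limma adjusted p = 0.0163), in each case 1 of 10 calls among 27887 transcripts (0.0359%). The pairs behind these calls were mixed. Those of uc007pbo.1 were at 0.21, -0.05, -0.19 and 0.22, and those of uc007xok.1 at -0.24, -0.18, -0.27 and 0.13. Both calls were lost without the replicate term (0.12 and -0.25) and without replicate 1 (0.05 and -0.29), replicate 2 (0.20 and -0.35) or replicate 3 (0.25 and -0.37), and the first turned in sign without a filter on low counts (-0.23). The differences that were not called were 0.11 ± 0.06 for uc007xok.1 and 0.12 ± 0.03 for uc007ihs.1 in resting inputs, and -0.21 ± 0.05 for uc007pbo.1 and -0.09 ± 0.05 for uc007ihs.1 in depolarized inputs. All 4 pairs of uc007ihs.1 in depolarized inputs were above 0 on CPM of the remaining reads, against the sign of its limma difference.

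**Figure D3:**
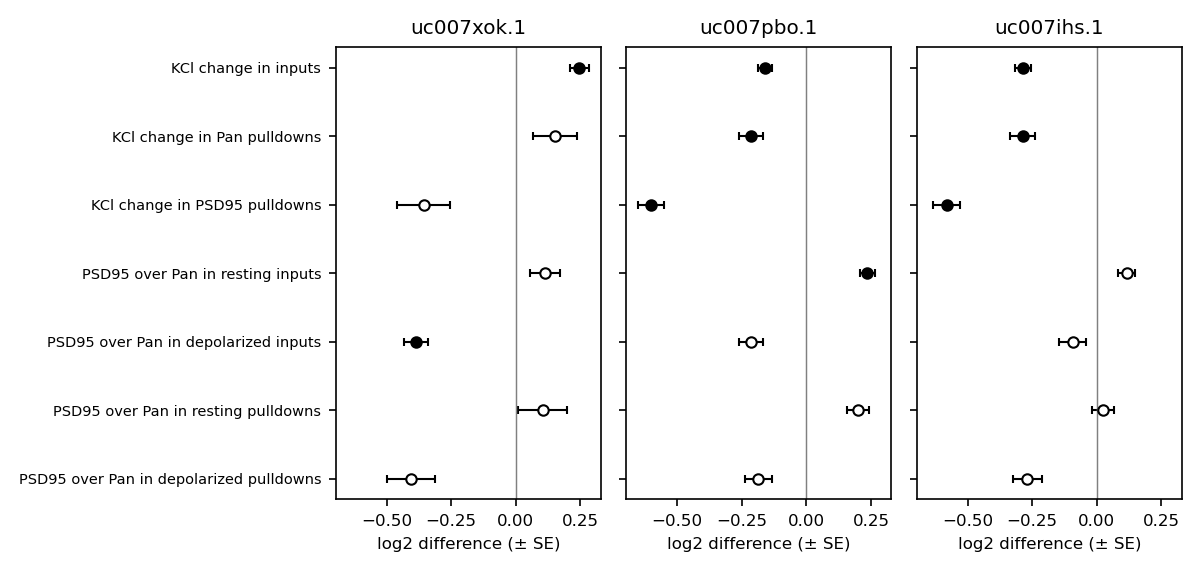
Log2 differences with standard errors from limma for the 3 transcripts in the 7 tested comparisons, with filled symbols for an adjusted p under 0.05 and open symbols for the rest. In the KCl rows uc007ihs.1 lies left of 0 in inputs (-0.29), Pan pulldowns (-0.29) and PSD95 pulldowns (-0.58), whereas uc007xok.1 lies right of 0 in the inputs (0.25).

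In all, limma called 9 of the 21 differences tested in the 3 transcripts. Over all transcripts it called from 0.00922% to 7.96%, depending on the comparison. DESeq2's Wald test called 5, namely the KCl changes of uc007xok.1 and uc007ihs.1 in inputs, of uc007xok.1 in Pan pulldowns, and of uc007pbo.1 and uc007ihs.1 in PSD95 pulldowns. The quasi-likelihood test of edgeR called 0, with 8 at an unadjusted p under 0.05. Among all transcripts, edgeR called 0 to 349 in these comparisons and DESeq2 called 329 to 2678.

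A ratio of 2 transcripts within a library does not depend on how libraries are scaled, so the transcripts were also set against each other. The TPM of uc007xok.1 was 3.69 to 8.82 times that of uc007ihs.1. In resting Pan inputs the ratio was 4.34 ± 0.84 and in depolarized ones 8.12 ± 0.88 (SD, n = 4 each). With PSD95 the input ratios were 5.09 ± 0.29 and 7.03 ± 0.21. In both cases resting and depolarized libraries were separated. They were separated in the pulldowns too, at 4.19 ± 0.39 and 6.33 ± 0.60 with Pan and at 4.41 ± 0.46 and 5.75 ± 0.62 with PSD95. What share of other transcript ratios is separated in this way, or rises in every pair, was not counted. The depolarized library was higher in 16 of 16 pairs, by 0.16 to 1.14 on the log2 scale, and the mean per replicate was 0.59 ± 0.15 (SD, n = 4). Against uc007pbo.1 the rise of uc007xok.1 was 0.45 ± 0.15 and was seen in 16 of 16 pairs. The ratio of uc007ihs.1 to uc007pbo.1, close to 1 in all libraries (0.859 to 1.38), was higher after depolarization in 3 of 16 pairs, with a mean log2 change of -0.14 ± 0.07 per replicate.

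Between fractions the same ratios moved less. The ratio of uc007xok.1 to uc007ihs.1 was lower in the pulldown in 14 of 16 lysates, by a mean log2 difference of -0.22 ± 0.10 per replicate (SD, n = 4), and that to uc007pbo.1 by -0.13 ± 0.02. Between constructs the ratio of uc007xok.1 to uc007ihs.1 was higher with PSD95 in 9 of 16 pairs, at a mean of -0.005 ± 0.114, and so showed no common direction. The ratios of uc007xok.1 and of uc007ihs.1 to uc007pbo.1 were higher with PSD95 in 6 and 5 of 16 pairs. Their means per replicate, -0.08 ± 0.07 and -0.07 ± 0.05, were below 0 in each of the 4 replicates.

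**Figure D4:**
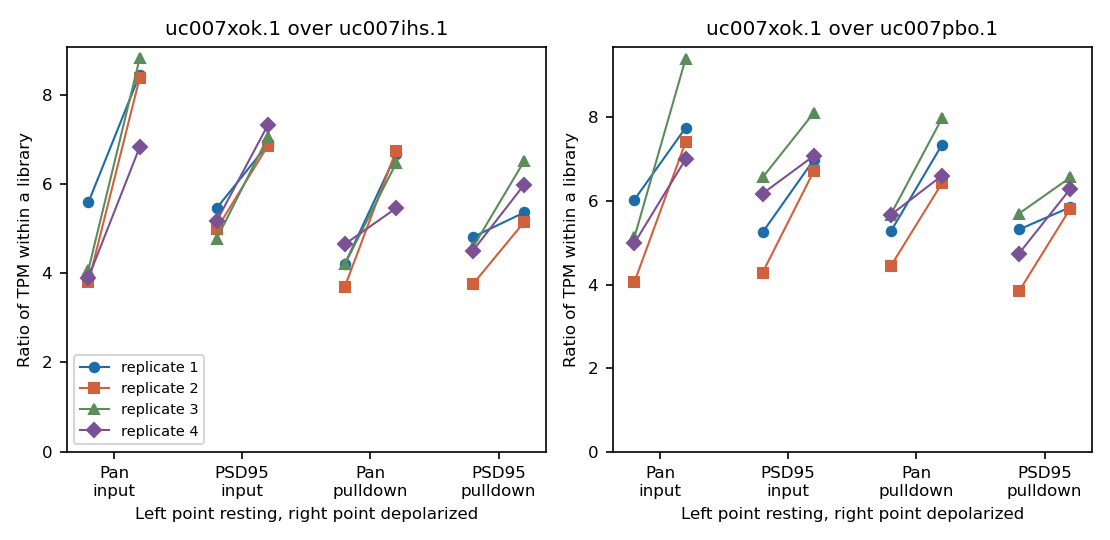
Ratio of the TPM of uc007xok.1 to that of uc007ihs.1 (left) and to that of uc007pbo.1 (right) within each library, on linear axes from 0, with a line from the resting to the depolarized library of each replicate. All 32 lines rise, from 4.34 to 8.12 on average for uc007xok.1 over uc007ihs.1 in Pan inputs.

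Other transcripts followed each of these closely over the 32 libraries. Among 7287 candidates with a mean of at least 200 reads, the log2 level of uc007xok.1 was most like that of uc009qun.1 (1789 nt, Pearson r = 0.973) and uc007qbd.1 (1922 nt, r = 0.963). The closest to uc007pbo.1 were uc007wxp.1 (2768 nt, r = 0.966) and uc008hpw.1 (641 nt, r = 0.947), and the closest to uc007ihs.1 were uc008upl.2 (17414 nt, r = 0.954) and uc007aoj.2 (17210 nt, r = 0.952). The first 2 neighbours of uc007xok.1 were near it in length, and both neighbours of uc007ihs.1 were, like it, far longer than the median model with reads (2507 nt). Among themselves uc007pbo.1 and uc007ihs.1 correlated at 0.928, uc007xok.1 and uc007pbo.1 at 0.824, and uc007xok.1 and uc007ihs.1 at 0.733. The 32 points share their libraries and scaling and fall into input and pulldown groups, so these values are descriptions.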

How the data were processed

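Total RNA of inputs and of streptavidin pulldowns was sequenced from stranded, rRNA-depleted libraries. The authors quantified transcripts with salmon on mm10 UCSC knownGene models, and each deposited file holds estimated counts (NumReads) and TPM per transcript model. Which salmon version was run is not given in the sources used here. Besides salmon and mm10, the submitters' notes on processing list limma and DESeq. The longest model of each gene was kept in the study's own analysis, whereas all 51884 models were used here. The 3 transcripts, and the comparisons, were chosen with earlier results of these data known.

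Levels were computed as CPM over all reads and over reads outside the 3 most abundant transcripts. For tests, expected counts were rounded, low transcripts were removed with filterByExpr, and limma 3.58.1 (voomWithQualityWeights, TMM factors from edgeR 4.0.16, R 4.3.3) was fitted with group and replicate terms to the 16 inputs, the 16 pulldowns or all 32 libraries. A difference was called at a Benjamini-Hochberg adjusted p under 0.05 over all transcripts tested. Standard errors (SE) come from that fit and SD from replicates. The spread is between 4 replicates per group, which the study describes as biological. The scripts were tested on simulated data. No 2 libraries of a group were alike within sampling noise (48 pairs compared).

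The replicate term follows the study's model and its statement that samples of a replicate were processed together. After removal of group means, libraries of the same number correlated at 0.138 on average in inputs and 0.119 in pulldowns, with lowest values of -0.023 and -0.003. The alternatives were DESeq2 1.42.0, the quasi-likelihood test of edgeR, other size factors, filters and weights, no replicate term, all 32 libraries in 1 model, a lysate term, the states named in the description field, and leaving out each replicate. Chosen after seeing the data were a fit without the 6 libraries with over 50% of reads in uc009sgd.1 and one without TMM factors on the remaining reads. Gene lists and cell type markers were not used, since the identifiers are not paired with gene names.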

Additional observations from a re-analysis of the deposited data

Results flagged for a closer look

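In 144 groups of 4 libraries or ratios, 13 values of the 3 transcripts stood apart from the other 3 of their group by Dixon's criterion, which flags about 1 in 20 groups by chance. Over all reads, uc007xok.1 was at 405 CPM in the depolarized PSD95 pulldown of replicate 3 against 1639 to 1855 in the others. In the resting Pan pulldown of replicate 3, uc007pbo.1 was at 924 CPM against 3176 to 3472 and uc007ihs.1 at 709 CPM against 2196 to 2470. These 2 libraries had 70.2% and 59.8% of their reads in uc009sgd.1. On CPM of the remaining reads, 1 level stood apart, that of uc007pbo.1 in the resting PSD95 pulldown of replicate 3, at 2605 against 4055 to 4335.

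The lysate of replicate 4 of depolarized Pan neurons, whose input had 84.8% of its reads in uc009sgd.1, gave log2 ratios of pulldown to input over all reads of 2.84 for uc007xok.1, 2.87 for uc007pbo.1 and 3.11 for uc007ihs.1, and log2 ratios of depolarized to resting Pan input of -2.47, -2.92 and -3.24 in the same order. On CPM of the remaining reads the same pulldown ratios were -0.53, -0.50 and -0.25. For uc007pbo.1 the depolarized to resting ratio over all reads also stood apart in replicate 3, at -2.02 in PSD95 inputs and 0.47 in Pan pulldowns. The TPM ratio of uc007xok.1 to uc007ihs.1 was 5.59 in the resting Pan input of replicate 1 against 3.79 to 4.08 in the others.

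The ratio of PSD95 to Pan had opposite signs in every replicate in 2 cases on CPM of the remaining reads. For uc007ihs.1 after depolarization it was above 0 in all inputs (mean log2 ratio 0.061) and below 0 in all pulldowns (-0.21). By limma, however, its difference in depolarized inputs was -0.09, below 0 as in the pulldowns. For uc007xok.1 it was above 0 in all resting inputs (0.19) and below 0 in all depolarized pulldowns (-0.35). The difference between these groups was not tested, and the share of transcripts with such opposite signs was not counted.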

How the results depend on the processing

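The KCl changes of uc007ihs.1 in inputs, Pan pulldowns and PSD95 pulldowns, of uc007xok.1 in inputs and of uc007pbo.1 in PSD95 pulldowns kept their sign under every alternative run. Of the 21 differences between states or constructs within a fraction, limma called 9, DESeq2 called 5 and edgeR called 0, with 8 at an unadjusted p under 0.05. Without the replicate block 1 of the 9 calls was kept, that of uc007ihs.1 in inputs, while libraries of the same number correlated at 0.138 and 0.119 on average. Counts were at least 941 reads, so depth limited these values less than the spread between 4 replicates did, and the cause of the differences between settings was not tested. The values listed for the KCl change of the ratio (of pulldown to input) rest on the ratios that chose the transcripts, so that a call there, kept or lost, is not read as evidence. The 21 differences leave these values out. Of the 21, limma called 8 without the 6 libraries, 4 without replicate 2 and 0 with the described states.

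With edgeR's quasi-likelihood test calls were lost for the KCl change in Pan pulldowns of uc007pbo.1 (-0.059) and uc007ihs.1 (-0.23), the KCl change in PSD95 pulldowns of uc007pbo.1 (-0.40) and uc007ihs.1 (-0.44), the KCl change in inputs of uc007xok.1 (0.43), uc007pbo.1 (-0.081) and uc007ihs.1 (-0.25), PSD95 over Pan in resting inputs of uc007pbo.1 (0.092), PSD95 over Pan in depolarized inputs of uc007xok.1 (-0.19), the KCl change of the ratio with Pan of uc007xok.1 (-0.25) and the KCl change of the ratio with PSD95 of uc007pbo.1 (-0.26) and the sign turned for PSD95 over Pan in resting pulldowns of uc007ihs.1 (-0.029), PSD95 over Pan in resting inputs of uc007ihs.1 (-0.021), PSD95 over Pan in depolarized inputs of uc007ihs.1 (0.015) and the KCl change of the ratio with Pan of uc007ihs.1 (0.049). With DESeq2's Wald test calls were lost for the KCl change in Pan pulldowns of uc007pbo.1 (-0.018) and uc007ihs.1 (-0.19), the KCl change in inputs of uc007pbo.1 (-0.062), PSD95 over Pan in resting inputs of uc007pbo.1 (0.082), PSD95 over Pan in depolarized inputs of uc007xok.1 (-0.22), the KCl change of the ratio with Pan of uc007xok.1 (-0.24) and the KCl change of the ratio with PSD95 of uc007pbo.1 (-0.22), calls were gained for the KCl change in Pan pulldowns of uc007xok.1 (0.43), and the sign turned for PSD95 over Pan in resting inputs of uc007ihs.1 (-0.033) and the KCl change of the ratio with Pan of uc007ihs.1 (0.052). With RLE size factors calls were lost for the KCl change of the ratio with Pan of uc007xok.1 (-0.087) and the KCl change of the ratio with PSD95 of uc007pbo.1 (-0.27) and calls were gained for the KCl change in PSD95 pulldowns of uc007xok.1 (-0.39), PSD95 over Pan in depolarized pulldowns of uc007ihs.1 (-0.30) and the KCl change of the ratio with PSD95 of uc007xok.1 (-0.42). Without quality weights calls were lost for the KCl change in Pan pulldowns of uc007pbo.1 (-0.20) and the KCl change of the ratio with PSD95 of uc007pbo.1 (-0.21) and the sign turned for the KCl change of the ratio with Pan of uc007pbo.1 (0.056). Without a filter on low counts calls were lost for the KCl change in inputs of uc007ihs.1 (-0.0056), PSD95 over Pan in depolarized inputs of uc007xok.1 (-0.23), the KCl change of the ratio with Pan of uc007xok.1 (-0.31) and the KCl change of the ratio with PSD95 of uc007pbo.1 (-0.60), calls were gained for the KCl change in Pan pulldowns of uc007xok.1 (0.23), the KCl change in PSD95 pulldowns of uc007xok.1 (-0.52) and PSD95 over Pan in depolarized pulldowns of uc007xok.1 (-0.56) and uc007pbo.1 (-0.22), and the sign turned for the KCl change in Pan pulldowns of uc007pbo.1 (0.0014), the KCl change in inputs of uc007pbo.1 (0.058), PSD95 over Pan in resting inputs of uc007pbo.1 (-0.23) and uc007ihs.1 (-0.047) and PSD95 over Pan in depolarized inputs of uc007ihs.1 (0.056). With a filter at a mean of 5 CPM calls were lost for the KCl change in Pan pulldowns of uc007pbo.1 (-0.057) and uc007ihs.1 (-0.19), the KCl change in inputs of uc007pbo.1 (-0.057), PSD95 over Pan in resting inputs of uc007pbo.1 (0.12), PSD95 over Pan in depolarized inputs of uc007xok.1 (-0.17), the KCl change of the ratio with Pan of uc007xok.1 (-0.26) and the KCl change of the ratio with PSD95 of uc007pbo.1 (-0.22) and the sign turned for PSD95 over Pan in resting pulldowns of uc007ihs.1 (-0.0012) and the KCl change of the ratio with Pan of uc007ihs.1 (0.043). Without the replicate block, that is, without pairing libraries by their number, calls were lost for the KCl change in Pan pulldowns of uc007pbo.1 (-0.22) and uc007ihs.1 (-0.32), the KCl change in PSD95 pulldowns of uc007pbo.1 (-0.55) and uc007ihs.1 (-0.56), the KCl change in inputs of uc007xok.1 (0.33) and uc007pbo.1 (-0.11), PSD95 over Pan in resting inputs of uc007pbo.1 (0.12), PSD95 over Pan in depolarized inputs of uc007xok.1 (-0.25), the KCl change of the ratio with Pan of uc007xok.1 (-0.41) and the KCl change of the ratio with PSD95 of uc007pbo.1 (-0.33). With the states named in the description field calls were lost for the KCl change in Pan pulldowns of uc007pbo.1 (-0.21) and uc007ihs.1 (-0.26), the KCl change in PSD95 pulldowns of uc007pbo.1 (-0.45) and uc007ihs.1 (-0.51), the KCl change in inputs of uc007xok.1 (0.17), uc007pbo.1 (-0.091) and uc007ihs.1 (-0.23), PSD95 over Pan in resting inputs of uc007pbo.1 (0.17), PSD95 over Pan in depolarized inputs of uc007xok.1 (-0.27), the KCl change of the ratio with Pan of uc007xok.1 (-0.26) and the KCl change of the ratio with PSD95 of uc007pbo.1 (-0.21), calls were gained for the KCl change of the ratio with Pan of uc007pbo.1 (-0.44), and the sign turned for PSD95 over Pan in resting pulldowns of uc007ihs.1 (-0.031). With all 32 libraries in 1 model calls were lost for the KCl change in Pan pulldowns of uc007pbo.1 (-0.15), the KCl change in inputs of uc007pbo.1 (-0.11) and PSD95 over Pan in resting inputs of uc007pbo.1 (0.13), calls were gained for the KCl change in PSD95 pulldowns of uc007xok.1 (-0.51), PSD95 over Pan in depolarized pulldowns of uc007xok.1 (-0.35), uc007pbo.1 (-0.30) and uc007ihs.1 (-0.34) and PSD95 over Pan in resting inputs of uc007ihs.1 (0.14), and the sign turned for the KCl change in Pan pulldowns of uc007xok.1 (-0.023). Without the 6 libraries with over 50% of reads in uc009sgd.1 calls were lost for the KCl change in Pan pulldowns of uc007pbo.1 (-0.21) and the KCl change of the ratio with PSD95 of uc007pbo.1 (-0.29) and the sign turned for the KCl change of the ratio with Pan of uc007pbo.1 (0.24). On the remaining reads without TMM factors calls were lost for the KCl change of the ratio with Pan of uc007xok.1 (-0.021) and the KCl change of the ratio with PSD95 of uc007pbo.1 (-0.31), calls were gained for PSD95 over Pan in depolarized pulldowns of uc007ihs.1 (-0.25) and the KCl change of the ratio with PSD95 of uc007xok.1 (-0.43), and the sign turned for PSD95 over Pan in resting pulldowns of uc007ihs.1 (-0.0079), PSD95 over Pan in depolarized inputs of uc007ihs.1 (0.023) and the KCl change of the ratio with Pan of uc007ihs.1 (0.063). With the lysate as a block calls were lost for the KCl change of the ratio with Pan of uc007xok.1 (-0.12) and calls were gained for the KCl change of the ratio with PSD95 of uc007xok.1 (-0.25).

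For the KCl change in Pan pulldowns 2018 transcripts were called, against 141 with edgeR, 1008 with no replicate block, 1 with the described states and 1121 with the 6 libraries left out, and 13 to 1130 with 1 replicate left out. For the KCl change in PSD95 pulldowns 2590 were called, against 178 with edgeR, 1587 with no quality weights, 542 with no replicate block and 0 with the described states, and 1 to 2005 with 1 replicate left out. For PSD95 over Pan in resting pulldowns 3 were called, against 1 with edgeR, 516 with DESeq2, 46 with no filter, 9 with the 5 CPM filter, 0 with no replicate block, 27 with 1 model and 5 with the 6 libraries left out, and 0 to 5 with 1 replicate left out. For PSD95 over Pan in depolarized pulldowns 42 were called, against 1 with edgeR, 626 with DESeq2, 78 with RLE factors, 21 with no quality weights, 198 with no filter, 7 with the 5 CPM filter, 0 with no replicate block, 0 with the described states, 249 with 1 model, 0 with the 6 libraries left out and 84 with no TMM factors, and 0 to 8 with 1 replicate left out. For the KCl change in inputs 1726 were called, against 349 with edgeR, 699 with no replicate block, 8 with the described states and 376 with the 6 libraries left out, and 82 to 778 with 1 replicate left out. For PSD95 over Pan in resting inputs 10 were called, against 0 with edgeR, 329 with DESeq2, 116 with no filter, 0 with the 5 CPM filter, 0 with no replicate block, 0 with the described states and 6 with no TMM factors, and 0 to 4 with 1 replicate left out. For PSD95 over Pan in depolarized inputs 10 were called, against 0 with edgeR, 528 with DESeq2, 38 with RLE factors, 76 with no quality weights, 408 with no filter, 0 with no replicate block, 29 with 1 model, 6 with the 6 libraries left out and 17 with no TMM factors, and 2 to 28 with 1 replicate left out. For the KCl change of the ratio with Pan 5 were called, against 1 with edgeR, 610 with DESeq2, 8 with RLE factors, 143 with no filter, 0 with the 5 CPM filter, 0 with no replicate block, 3 with the described states and 10 with the lysate block, and 0 to 4 with 1 replicate left out. For the KCl change of the ratio with PSD95 8 were called, against 0 with edgeR, 481 with DESeq2, 1 with no quality weights, 46 with no filter, 1 with the 5 CPM filter, 0 with no replicate block, 0 with the described states, 26 with the lysate block and 3 with the 6 libraries left out, and 0 to 5 with 1 replicate left out.

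When each replicate was left out in turn, the log2 differences whose call or sign changed ranged for the KCl change in Pan pulldowns from -0.23 to -0.092 for uc007pbo.1 and -0.30 to -0.24 for uc007ihs.1, for the KCl change in PSD95 pulldowns from -0.46 to 0.034 for uc007xok.1, -0.69 to -0.44 for uc007pbo.1 and -0.69 to -0.38 for uc007ihs.1, for PSD95 over Pan in resting pulldowns from -0.084 to 0.18 for uc007xok.1 and -0.0092 to 0.065 for uc007ihs.1, for the KCl change in inputs from 0.22 to 0.46 for uc007xok.1, -0.19 to -0.10 for uc007pbo.1 and -0.35 to -0.24 for uc007ihs.1. In the same way they ranged for PSD95 over Pan in resting inputs from 0.052 to 0.26 for uc007pbo.1, for PSD95 over Pan in depolarized inputs from -0.37 to -0.29 for uc007xok.1, for the KCl change of the ratio with Pan from -0.80 to -0.089 for uc007xok.1, -0.29 to 0.19 for uc007pbo.1 and -0.15 to 0.12 for uc007ihs.1, for the KCl change of the ratio with PSD95 from -0.47 to 0.13 for uc007xok.1, -0.34 to -0.068 for uc007pbo.1 and -0.28 to 0.22 for uc007ihs.1.

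The mean log2 ratio of pulldown to input over all reads moved by more than 1 SD in 2 of the 4 groups, and in depolarized Pan neurons, where replicate 4 set the SD, it turned from 0.37, 0.50 and 0.71 for uc007xok.1, uc007pbo.1 and uc007ihs.1 to -0.63, -0.49 and -0.29 on CPM over reads outside the 3 most abundant transcripts and to -0.83, -0.70 and -0.49 over TMM-scaled library sizes. In the 2 groups that moved by more than 1 SD it became 0.20 for uc007xok.1, 0.13 for uc007pbo.1 and 0.23 for uc007ihs.1 on TPM as deposited in resting Pan neurons, -1.09 for uc007xok.1, -0.86 for uc007pbo.1 and -0.80 for uc007ihs.1 on CPM over TMM-scaled library sizes in depolarized PSD95 neurons, -0.84 for uc007xok.1, -0.62 for uc007pbo.1 and -0.56 for uc007ihs.1 on CPM over reads outside the 3 most abundant transcripts in depolarized PSD95 neurons and 0.22 for uc007xok.1, 0.45 for uc007pbo.1 and 0.51 for uc007ihs.1 on TPM as deposited in depolarized PSD95 neurons.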
